A study of Mus musculus with 4 samples.

Results

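The enzymes that place, copy and remove methyl groups on DNA were followed in whole mouse embryos lacking Ddx6. They were chosen by symbol as 9 genes: Dnmt1 and Uhrf1, Dnmt3a, Dnmt3b and Dnmt3l, Tet1, Tet2 and Tet3, and Tdg. All 9 had a row among the 24421 genes of the count table. Of these 9, 8 had at least 10 reads in at least 1 library and were compared, while Tdg had too few reads.

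Polyadenylated RNA of ICR embryos was sequenced in 4 libraries: wild-type (WT) at embryonic day 7.5 (E7.5), wild-type at E8.5, and E8.5 Ddx6 -/- replicates 1 and 2 (KO1 and KO2). All were whole embryos with no treatment named in the labels. Per the study's methods, the null allele lacked exon 5, which a ubiquitous Cre had removed from a floxed allele, and the KO embryos came from heterozygote crosses. KO1 pooled an embryo from before head-fold formation with a head-fold embryo, and KO2 pooled embryos from before head-fold formation only, so the KO libraries differed in morphological stage as well as in being replicates.

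Total counts were 8198402 in KO1 and between 12008252 and 12562640 in the other libraries. Levels are given as reads and as CPM, counts scaled to a common library size with TMM factors between 0.978 and 1.02. Ddx6 had 2943 reads in E7.5 wild-type, 5715 in E8.5 wild-type, 706 in KO1 and 929 in KO2, and was 5.53-fold and 6.10-fold lower in KO1 and KO2 than in E8.5 wild-type. KO2 stood apart from the other libraries. Trophoblast giant cell markers summed to 533.1 CPM in KO2 against 18.2 to 29.7 CPM in the other 3 libraries. Of the 6, 2 (Prl3d1 and Prl2c2) were above a log2 change of 1, the threshold used throughout, in both KO libraries, in KO1 on 3 and 4 reads. Prl3b1 and Tpbpa were at 0 in every library. Among all genes compared, 3.44% were higher than E8.5 wild-type past the threshold in both KO libraries and 1.79% were lower. Markers of the maternal decidua summed to 134.1, 20.6, 36.7 and 140.9 CPM in E7.5 wild-type, E8.5 wild-type, KO1 and KO2, and 2 of 6 (Prl8a2 and Col6a3) were higher in both KO libraries. For Col6a3 this rested on 6 reads in E8.5 wild-type, 15 in KO1 and 16 in KO2. Prl8a2 alone made up 110.8 CPM of this sum in E7.5 wild-type and 117.6 CPM in KO2, against 2.12 and 7.62 CPM in E8.5 wild-type and KO1, while Lum (-1.74) and Dcn (-0.17) had negative log2 changes from E8.5 wild-type in KO2. Xist had 17340 reads in KO2 and 15 to 46 elsewhere, and 4 Y-linked genes together had 0 reads in KO2 and 1100 to 2179 elsewhere. Visceral endoderm markers summed to 6920 and 7167 CPM in E7.5 wild-type and E8.5 wild-type and to 4212 and 4010 CPM in KO1 and KO2, with 3 of 8 (Apoa1, Apom and Rbp4) lower in both KO libraries past the threshold. Values are therefore given for KO1 and KO2 separately beside any mean or test over both.

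DNA methylation in mammals is carried at CpG dinucleotides. DNMT3A and DNMT3B set new methylation, with DNMT3L as a cofactor that has no catalytic activity of its own, and DNMT1, brought to hemimethylated DNA by UHRF1, copies the pattern onto the new strand after replication. TET1, TET2 and TET3 oxidise 5-methylcytosine, and TDG removes the most oxidised forms, which base excision repair replaces with cytosine. The epiblast gains methylation around implantation through DNMT3B above all, whereas extraembryonic tissues stay less methylated. DDX6, a helicase of processing bodies, takes part in the decay of mRNAs and in their silencing by microRNAs (miRNAs).

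The promoters of Dnmt3b and Dnmt3l are shown first, since these genes differed most between libraries, and all 9 members had an entry, with 16 windows in all. Each is the RefSeq window (GRCm38.p6) from 250 bases before to 50 bases after a transcription start, on the gene's plus strand, with CpG dinucleotides in capitals.
Dnmt3b, chr2:153649199-153649498: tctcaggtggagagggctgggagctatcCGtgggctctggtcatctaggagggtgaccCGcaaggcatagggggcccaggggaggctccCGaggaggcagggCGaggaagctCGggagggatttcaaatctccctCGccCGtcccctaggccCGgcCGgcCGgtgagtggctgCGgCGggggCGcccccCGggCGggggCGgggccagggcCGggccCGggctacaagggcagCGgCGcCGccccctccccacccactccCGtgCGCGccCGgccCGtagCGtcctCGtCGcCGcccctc
Dnmt3l, chr10:78042037-78042336: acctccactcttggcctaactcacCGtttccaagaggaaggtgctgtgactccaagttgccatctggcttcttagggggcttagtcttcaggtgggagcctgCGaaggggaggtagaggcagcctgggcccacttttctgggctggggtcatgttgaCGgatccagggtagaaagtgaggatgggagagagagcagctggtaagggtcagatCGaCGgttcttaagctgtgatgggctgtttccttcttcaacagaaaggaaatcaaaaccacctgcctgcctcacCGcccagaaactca
Dnmt3l, chr10:78049592-78049891: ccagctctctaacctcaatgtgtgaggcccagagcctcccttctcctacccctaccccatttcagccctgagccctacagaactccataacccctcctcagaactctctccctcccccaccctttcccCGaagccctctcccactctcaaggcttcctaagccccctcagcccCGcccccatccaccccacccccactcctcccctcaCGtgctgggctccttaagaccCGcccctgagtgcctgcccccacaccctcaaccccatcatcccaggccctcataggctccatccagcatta
Dnmt3l, chr10:78055085-78055384: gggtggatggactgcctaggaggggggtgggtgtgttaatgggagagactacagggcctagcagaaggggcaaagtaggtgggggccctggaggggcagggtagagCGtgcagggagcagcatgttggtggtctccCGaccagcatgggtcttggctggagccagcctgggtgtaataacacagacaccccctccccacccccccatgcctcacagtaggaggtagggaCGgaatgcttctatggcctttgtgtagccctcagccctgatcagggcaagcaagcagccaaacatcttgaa

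The Dnmt3b window held 30 CpG, a number that 11.7% of 32851 mouse promoter windows of the same length reached. The 3 Dnmt3l windows held 6, 4 and 3 CpG, numbers reached by 56.4%, 68.6% and 76.7% of all windows, whose median was 7. Among the other members the count ran from 2 CpG at one Dnmt1 start to 57 at the Tet2 start, which 0.152% of all windows reached. Methylation itself was not measured in these libraries, so the CpG counts describe the sequence alone.

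Sequence matches to miRNA seeds are shown because DDX6 acts with miRNAs and because the miR-29 family is known to target these enzymes. Bases 2 to 8 of each mature miRNA (RefSeq, GRCm38.p6) are in capitals.
miR-29a-3p: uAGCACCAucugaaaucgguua
miR-294-3p: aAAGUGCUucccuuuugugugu
The reverse complement of the miR-29a-3p seed, TGGTGCT, was searched on the transcript strand in the longest annotated 3′ UTR of each gene (GENCODE M21). It was present in 15.7% of 13420 UTRs of the genes compared and in 6 of the 9 members. Dnmt3b had 1 match, Dnmt3a 5, Tet1 7, Tet2 5, Tet3 8 and Tdg 3, and there was none in Dnmt1, Dnmt3l or Uhrf1. The match nearest to the stop codon is given for each member that was compared, with the matched bases in capitals.
Dnmt3b, UTR base 228: agtagcccggcaTGGTGCTcat
Dnmt3a, UTR base 825: ccgacttcataaTGGTGCTttc
Tet1, UTR base 316: aaccatagagtcTGGTGCTttc
Tet2, UTR base 398: tgcaggatcatcTGGTGCTgac
Tet3, UTR base 51: cgagctgctctgTGGTGCTttt

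Long UTRs hold more matches by length alone. Among UTRs within 20% of the length of that of Tet1 (7962 bases), 53.5% held the miR-29a-3p word, and the share was 49.7% for Dnmt3a (6696 bases), 44.9% for Tet3 (5669 bases), 27.5% for Tet2 (3058 bases) and 12.7% for Dnmt3b (1331 bases). For Tdg (2079 bases) it was 19.2%. The word for miR-294-3p (AGCACTT), a miRNA abundant in pluripotent cells, was in 17.2% of all UTRs and in Tet1 (2 matches), Tet2 (1) and Tet3 (3). Its share among UTRs of like length was 61.3% for Tet1, 56% for Tet3 and 31.3% for Tet2. The word for let-7a-5p was in 1 member (Tet3) and in 10.8% of all UTRs, that for miR-26a-5p in 5 members and 11.2% of UTRs, and that for miR-148a-3p in 3 members and 15.3%. For let-7a-5p the share among UTRs of like length was 31.9% for Tet3. For miR-148a-3p it was 20.2% for Tdg, 11.3% for Uhrf1 and 2.93% for Dnmt1, the members that held it. For miR-26a-5p the share among UTRs of like length was 46.1% for Tet1, 37.8% for Dnmt3a, 33.9% for Tet3, 20.8% for Tet2 and 13.5% for Tdg, which are the members that held it. These shares are given only for members that held a word. Members without one could have a high share too, such as Dnmt3a for miR-294-3p (60.9%) and Tet1 for miR-148a-3p (47.9%). miR-302a-3p was not analysed here. A match describes the sequence and does not show that the site is used.

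Per length, the members spanned several orders of magnitude. In E8.5 wild-type, Uhrf1 had the highest level at 128.6 CPM per kilobase of exon, followed by Dnmt3b at 104.0, Dnmt1 at 74.2, Dnmt3a at 17.0, Tet3 at 12.9, Tet1 at 6.02, Tet2 at 2.40 and Dnmt3l at 0.152. In the other 3 libraries Dnmt3b was the highest, at 353.8 CPM per kilobase in E7.5 wild-type, 132.2 in KO1 and 539.5 in KO2, and Uhrf1 and Dnmt1 came next in that order. Apart from Dnmt3l, which at 19.5 ranked just below Dnmt1 in E7.5 wild-type and last of the 8 elsewhere, the order of the remaining genes was Dnmt3a, Tet3, Tet1 and Tet2 in all 4 libraries.

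**Figure D1:**
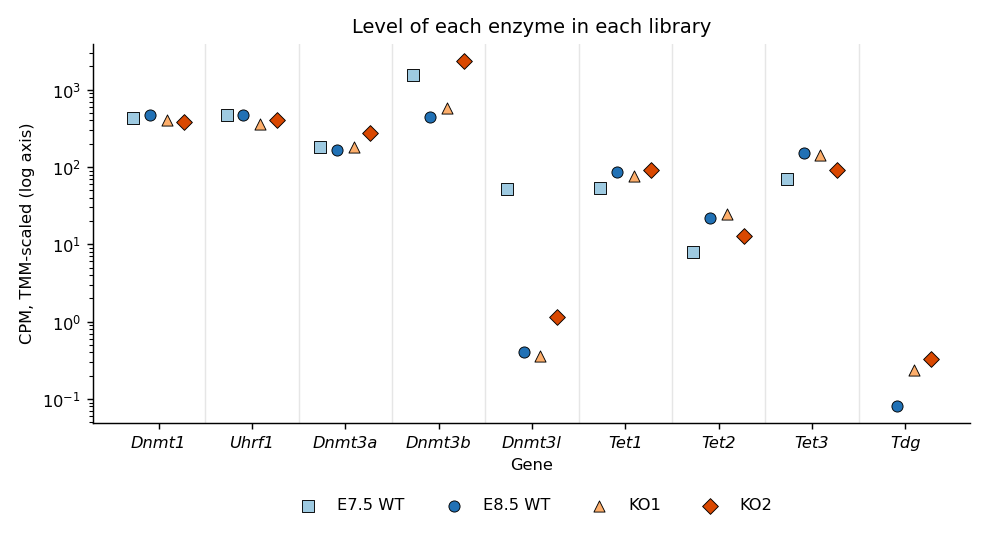
TMM-scaled CPM of the 9 genes (log axis) in E7.5 WT (squares), E8.5 WT (circles), KO1 (triangles) and KO2 (diamonds), 1 point per library with no error bar. Dnmt1 and Uhrf1 lie close together in all libraries, Dnmt3b is highest in KO2 at 2334 CPM, and Dnmt3l is at 52.0 CPM in E7.5 WT and at 1.15 CPM or less elsewhere. Tdg had 0 reads in E7.5 WT and has no point there.

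The maintenance enzymes varied least. Dnmt1, the methyltransferase that copies methylation at the replication fork (chromosome 9, 20907209 to 20959888, minus strand, GRCm38), had 5052 reads in E7.5 wild-type, 5743 in E8.5 wild-type, 3391 in KO1 and 4665 in KO2. These were 424.7, 467.3, 403.8 and 382.8 CPM, so that both KO libraries lay below both wild-type libraries. The ratio to E8.5 wild-type was 0.864 in KO1 (95% Clopper-Pearson interval 0.828 to 0.902, which like all intervals given here covers counting error only) and 0.819 in KO2 (0.788 to 0.852). The mean log2 change, a difference of log2 CPM with a prior count of 2, was -0.25 ± 0.05 (SD, n = 2).

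Uhrf1, which binds hemimethylated CpG and recruits DNMT1 (chromosome 17, 56303321 to 56323486, plus strand), had 5648, 5795, 3068 and 4897 reads in E7.5 wild-type, E8.5 wild-type, KO1 and KO2. These were 474.8, 471.5, 365.3 and 401.9 CPM. The wild-type stages did not differ beyond counting error (ratio 0.993, 0.957 to 1.03), and both KO libraries were lower, with a mean log2 change from E8.5 wild-type of -0.30 ± 0.10 (SD, n = 2). The edgeR quasi-likelihood test against E8.5 wild-type left an adjusted p of 0.666 for Uhrf1 (0.0841 unadjusted) and of 0.666 for Dnmt1 (0.108 unadjusted). In the longest Uhrf1 transcript, 18.9% of the 50-base words also occurred in other annotated genes, chiefly Gm5648, so some reads of Uhrf1 may have been left uncounted or placed there.

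S phase genes had lower values in the KO libraries as well. Of 14 S phase and proliferation genes, 12 were below E8.5 wild-type in KO1 and KO2 alike, as were 5413 of the 14393 genes compared, and 0 of the 14 passed a log2 change of 1. Their median log2 change was -0.30 in KO1 and -0.29 in KO2, and their summed level was 5249, 5286, 4515 and 4559 CPM in E7.5 wild-type, E8.5 wild-type, KO1 and KO2. None of them was at 0 reads. The part of these genes in the Dnmt1 and Uhrf1 values was not tested. In bulk RNA of whole embryos, fewer cells of a type and less RNA per cell cannot be told apart, which holds for every gene described here.

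Within a library, Uhrf1 had 1.92 times the per-length level of Dnmt1 in E7.5 wild-type (1.85 to 1.996), 1.73 times in E8.5 wild-type (1.67 to 1.80), 1.55 times in KO1 (1.48 to 1.63) and 1.80 times in KO2 (1.73 to 1.88). This ratio does not depend on scaling between libraries, and that of KO2 lay between those of the wild-type stages.

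Among the de novo enzymes, Dnmt3b had the largest differences between libraries in CPM, and Dnmt3l the largest in fold. Dnmt3b (chromosome 2, 153649450 to 153687730, plus strand) had 18206 reads in E7.5 wild-type, 5529 in E8.5 wild-type, 4802 in KO1 and 28440 in KO2, which were 1531, 449.9, 571.8 and 2334 CPM. It was high in E7.5 wild-type and KO2 and low in E8.5 wild-type and KO1. In wild-type embryos the level was 3.40-fold lower at E8.5 than at E7.5 (95% counting interval 3.30 to 3.51). KO2 was 5.19-fold higher than E8.5 wild-type (5.04 to 5.34) and KO1 was 1.27-fold higher (1.22 to 1.32).

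Against E7.5 wild-type, Dnmt3b was 1.52-fold higher in KO2 (1.497 to 1.55) and 2.68-fold lower in KO1 (2.59 to 2.76). The KO libraries thus differed 4.08-fold (3.96 to 4.21), where the wild-type stages differed 3.40-fold. The mean log2 change from E8.5 wild-type was 1.36 ± 1.43 (SD, n = 2), and the adjusted p of the edgeR test was 0.671. The longest Dnmt3b transcript shared 11.5% of its 50-base words with 1 other gene, Dnmt3c, which was not analysed here.

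**Figure D2:**
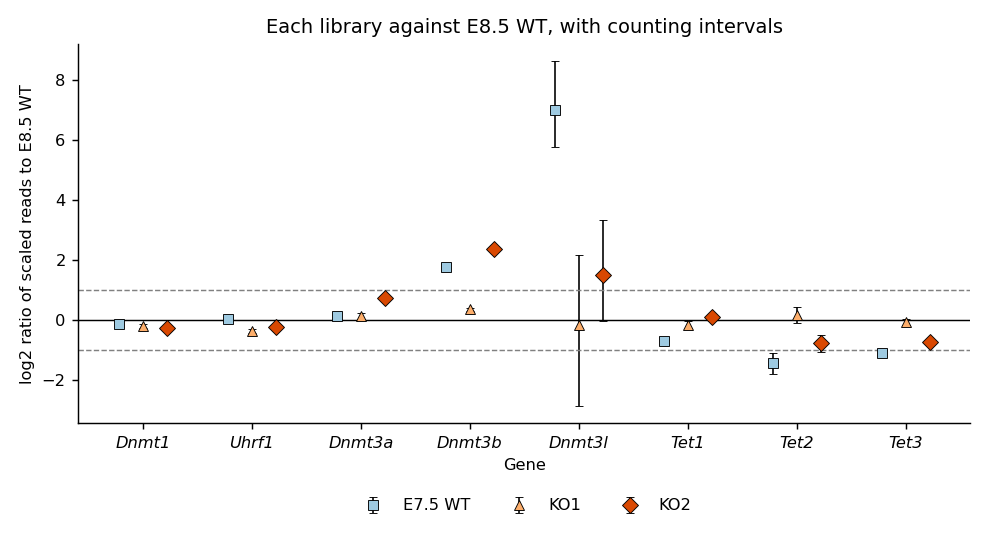
Log2 ratio of scaled reads to E8.5 WT for the 8 genes compared, in E7.5 WT (squares), KO1 (triangles) and KO2 (diamonds), with 95% Clopper-Pearson intervals that cover counting error only; dashed lines mark 1 and -1. Dnmt3b in KO2 lies at 2.38 and in KO1 at 0.35, Dnmt3l in E7.5 WT is the highest point, and Tet2 and Tet3 lie below 0 in E7.5 WT and KO2.

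Markers of the epiblast, the tissue that forms the embryo proper, were read beside Dnmt3b. The summed level of 7 markers was 775.8 CPM in E7.5 wild-type, 210.7 in E8.5 wild-type, 267.8 in KO1 and 1153 in KO2. The sum was high and low in the same libraries as Dnmt3b, and none of the 7 was at 0 reads. Not every marker followed the sum. Nanog was at 23.4, 7.40, 23.5 and 72.4 CPM in the same order, and Otx2 at 69.6, 57.2, 60.7 and 169.0 CPM. The median log2 change of the 7 from E8.5 wild-type was 0.09 in KO1 and 2.57 in KO2, against -0.01 and 0.00 over all genes compared. Of the 7, 2 (Nanog and Fgf5) were above a log2 change of 1 in both KO libraries, as were 3.44% of all genes compared. Past this threshold, 6 were lower in E8.5 wild-type than in E7.5 wild-type (7.82% of genes). Pou5f1, which encodes the pluripotency factor OCT4, had 3790, 693, 867 and 4085 reads.

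For each Pou5f1 read there were 4.80 Dnmt3b reads in E7.5 wild-type (4.64 to 4.98), 7.98 in E8.5 wild-type (7.37 to 8.65), 5.54 in KO1 (5.15 to 5.96) and 6.96 in KO2 (6.74 to 7.20). The pairing with Pou5f1 was chosen after the values were seen. Other markers of the list had other patterns. Fgf5 had 184, 32, 63 and 994 reads and Utf1 had 1778, 62, 42 and 1361, in the same order of libraries. The Pou5f1 ratio therefore does not stand for the list. The part of the epiblast in the Dnmt3b level was not tested.

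**Figure D3:**
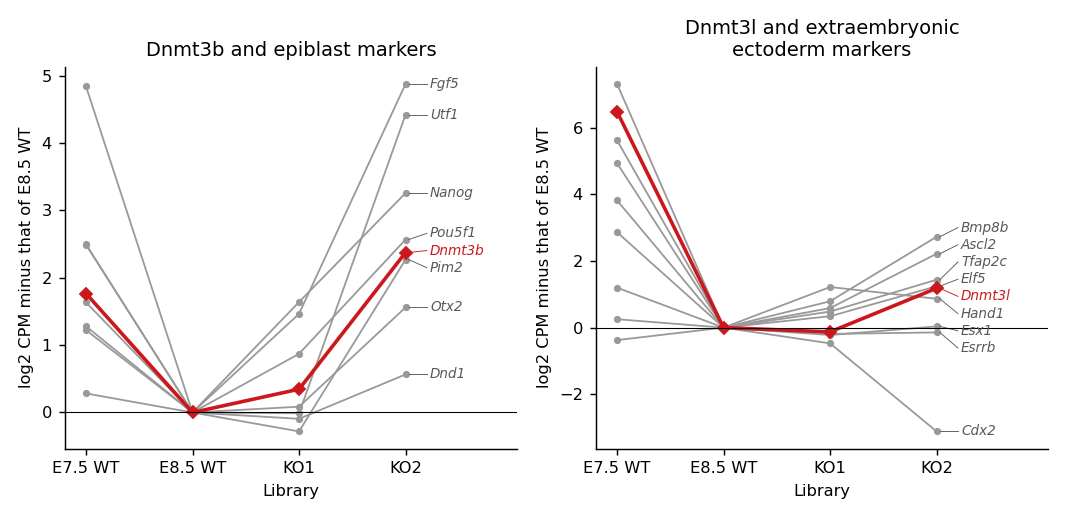
Log2 CPM of each library minus that of E8.5 WT for Dnmt3b with 7 epiblast markers (left) and Dnmt3l with 8 extraembryonic ectoderm markers (right), 1 line per gene, the enzymes in red. Lines only join the values of a gene. Dnmt3b in KO2 (2.38) lies between Pou5f1 (2.57) and Pim2 (2.27), and Dnmt3l and Elf5 are both high in E7.5 WT only.

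Dnmt3a, the other de novo methyltransferase (chromosome 12, 3806007 to 3914443, plus strand), had 2161, 2065, 1539 and 3389 reads in E7.5 wild-type, E8.5 wild-type, KO1 and KO2. These were 181.7, 168.0, 183.3 and 278.1 CPM, so KO2 was the highest and the other 3 libraries lay close together. KO1 and E7.5 wild-type did not differ beyond counting error (ratio 1.01, 0.944 to 1.08). KO2 was 1.65-fold higher than E8.5 wild-type (1.57 to 1.75) and 1.52-fold higher than KO1 (1.43 to 1.61). The mean log2 change from E8.5 wild-type was 0.43 ± 0.43 (SD, n = 2).

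Dnmt3l, the catalytically inactive cofactor (chromosome 10, 78041947 to 78063622, plus strand), had 618 reads in E7.5 wild-type, 5 in E8.5 wild-type, 3 in KO1 and 14 in KO2. It was clearly present in E7.5 wild-type only, at 52.0 CPM, and at 0.407, 0.357 and 1.15 CPM in the other libraries. Between the wild-type stages the ratio was 0.00783 (95% counting interval 0.00253 to 0.0184). KO1 against E7.5 wild-type had a ratio of 0.00688 (0.00141 to 0.0202) and KO2 a ratio of 0.0221 (0.0120 to 0.0374). Neither KO library differed from E8.5 wild-type beyond counting error, with ratios of 0.878 (0.136 to 4.51) and 2.82 (0.961 to 10.02). KO2 and E7.5 wild-type, which were alike in having high Dnmt3b, thus differed by a log2 change of -5.30 in Dnmt3l.

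Against E7.5 wild-type the edgeR test of Dnmt3l left an adjusted p of 0.128 (5.43e-04 unadjusted). The adjusted p was 0.0223 in edgeR with no filter on low counts, 0.131 with a minimum of 50 counts and 1.03e-10 in DESeq2, so the call depended on the test and the filter. Markers of the extraembryonic ectoderm, the trophoblast tissue next to the epiblast, were read beside it. Of 8 markers, 6 were lower in E8.5 wild-type than in E7.5 wild-type past the threshold (7.82% of genes). The same 6 (Elf5, Esx1, Esrrb, Tfap2c, Bmp8b and Ascl2) stood below E7.5 wild-type past the threshold in KO1 and KO2 (2.7% of genes). Against E8.5 wild-type, 0 passed the threshold in both KO libraries (3.44% of genes higher and 1.79% lower). The summed level of the 8 was 554.0, 308.2, 522.8 and 386.5 CPM in E7.5 wild-type, E8.5 wild-type, KO1 and KO2. Most of the reads outside E7.5 wild-type came from Hand1 and Cdx2, which are also expressed in the embryo proper.

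Elf5, which encodes a transcription factor of trophoblast stem cells, had 795, 3, 3 and 10 reads in E7.5 wild-type, E8.5 wild-type, KO1 and KO2. Its value was therefore at or near the floor of 3 reads where Dnmt3l was. There were 0.777 Dnmt3l reads per Elf5 read in E7.5 wild-type (0.699 to 0.865), a pairing also chosen after the values were seen. The ratios in E8.5 wild-type, KO1 and KO2 were 1.67 (0.324 to 10.73), 1 (0.134 to 7.47) and 1.40 (0.578 to 3.52). At 3 to 14 reads a gene, intervals this wide cannot show whether the ratio was kept. The part of this tissue in the Dnmt3l level was not tested. Primordial germ cell markers, whose cells use DNMT3L at later stages, summed to 97.5, 42.3, 32.9 and 46.5 CPM, with Nanos3 at 0 reads in E7.5 wild-type and 1 to 3 elsewhere. Of this sum in E7.5 wild-type, 73.9 CPM came from Tfap2c, which also stands in the extraembryonic ectoderm list, whereas Prdm1 went from 13.5 CPM in E7.5 wild-type to 28.1 CPM in E8.5 wild-type.

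The DNMT3 family was summed within each library as reads per kilobase of exon. Dnmt3b took 90.3% of the family in E7.5 wild-type, 85.9% in E8.5 wild-type, 87.7% in KO1 and 94.98% in KO2. Dnmt3a took 4.68%, 14.0%, 12.3% and 4.94%, and Dnmt3l took 4.97% in E7.5 wild-type and 0.126%, 0.0887% and 0.0758% in E8.5 wild-type, KO1 and KO2. The ratio of Dnmt3b to Dnmt3a was 19.3 in E7.5 wild-type (18.5 to 20.2) and 19.2 in KO2 (18.6 to 19.9), and 6.13 in E8.5 wild-type (5.83 to 6.46) and 7.15 in KO1 (6.75 to 7.58). In this ratio KO2 and E7.5 wild-type did not differ beyond counting error, although Dnmt3a and Dnmt3b were both higher in KO2.

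The balance of de novo to maintenance enzymes differed as well. Per length, the Dnmt3b level was 5.25 times that of Dnmt1 in E7.5 wild-type (5.09 to 5.42), 1.40 times in E8.5 wild-type (1.35 to 1.46), 2.06 times in KO1 (1.97 to 2.16) and 8.88 times in KO2 (8.61 to 9.16). Both KO libraries were above E8.5 wild-type, and KO2 was above E7.5 wild-type. Dnmt3a stood at 0.272, 0.229, 0.289 and 0.462 of Dnmt1 in the same order.

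**Figure D4:**
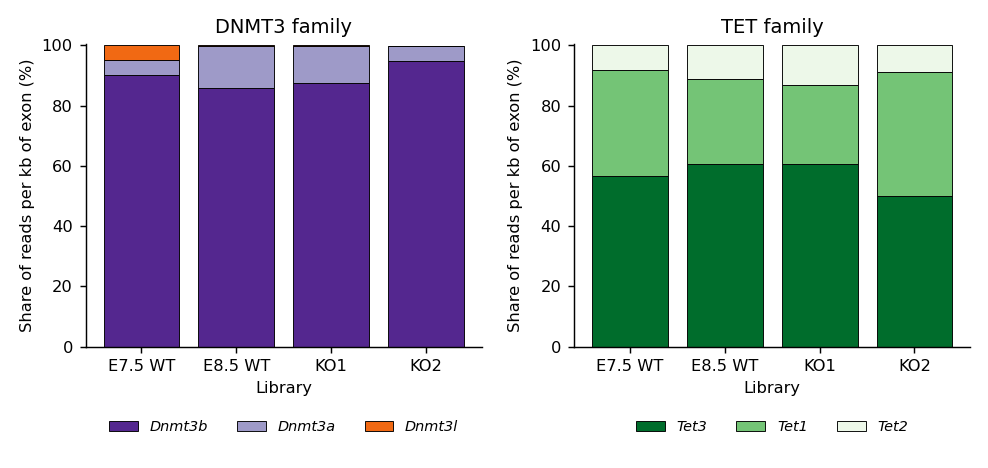
Share of reads per kilobase of exon taken by each gene of the DNMT3 family (left) and the TET family (right) in each library, in percent, 1 bar per library. Dnmt3b takes between 85.9% and 94.98% of its family, Dnmt3l is visible in E7.5 WT only, and Tet1 takes its highest share, 41.0%, in KO2.

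The TET dioxygenases were higher at E8.5 than at E7.5 in wild-type embryos, and KO2 lay below KO1 for Tet2 and Tet3. Tet3 (chromosome 6, 83362373 to 83459084, minus strand), the TET gene with the highest level per kilobase of exon in every library, had 839, 1861, 1212 and 1109 reads in E7.5 wild-type, E8.5 wild-type, KO1 and KO2. These were 70.5, 151.4, 144.3 and 91.0 CPM, with E8.5 wild-type and KO1 high and E7.5 wild-type and KO2 low. The WT stages differed 2.15-fold (1.98 to 2.33). KO1 did not differ from E8.5 wild-type beyond counting error (ratio 0.953, 0.886 to 1.02), whereas KO2 was at 0.601 of it (0.557 to 0.648) and 1.29-fold above E7.5 wild-type (1.18 to 1.41).

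Tet2 (chromosome 3, 133463679 to 133545139, minus strand) had the fewest reads of the 3, with 96, 271, 205 and 156, or 8.07, 22.1, 24.4 and 12.8 CPM. As for Tet3, E8.5 wild-type and KO1 were high and E7.5 wild-type and KO2 low, with KO1 rather than E8.5 wild-type the highest. E8.5 wild-type was 2.73-fold above E7.5 wild-type (2.16 to 3.48). KO1 did not differ from E8.5 wild-type beyond counting error (ratio 1.11, 0.919 to 1.33), and KO2 was at 0.581 of E8.5 wild-type (0.474 to 0.710). The mean log2 change from E8.5 wild-type was -0.32 ± 0.65 for Tet2 and -0.40 ± 0.47 for Tet3 (SD, n = 2).

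Tet1 (chromosome 10, 62804570 to 62908996, minus strand), known for its expression in pluripotent cells, did not follow the other TET genes. It had 631, 1064, 644 and 1115 reads, or 53.0, 86.6, 76.7 and 91.5 CPM, and only E7.5 wild-type was low. E8.5 wild-type was 1.63-fold above E7.5 wild-type (1.48 to 1.80), and KO2 did not differ from E8.5 wild-type beyond counting error (ratio 1.06, 0.971 to 1.15). Both KO libraries were above E7.5 wild-type, 1.45-fold in KO1 (1.29 to 1.62) and 1.72-fold in KO2 (1.56 to 1.91), with an adjusted p of 0.152 in edgeR (0.0205 unadjusted).

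Within the TET family, Tet3 took 56.8%, 60.5%, 60.6% and 49.99% of the reads per kilobase in E7.5 wild-type, E8.5 wild-type, KO1 and KO2, and Tet1 took 34.9%, 28.2%, 26.3% and 41.0%. Tet1 stood at 0.614 of Tet3 in E7.5 wild-type (0.553 to 0.682), 0.467 in E8.5 wild-type (0.433 to 0.504), 0.434 in KO1 (0.394 to 0.478) and 0.821 in KO2 (0.755 to 0.893). The interval of KO2 lay above those of the other 3 libraries. Tet3 over Tet2 was 6.85, 5.38, 4.63 and 5.57, with overlapping intervals in E8.5 wild-type, KO1 and KO2. The interval of E7.5 wild-type (5.54 to 8.55) overlapped those of E8.5 wild-type and KO2 but not that of KO1 (3.99 to 5.40). The summed per-length level of the family was 10.6 CPM per kilobase in E7.5 wild-type, 21.3 in E8.5 wild-type, 20.3 in KO1 and 15.5 in KO2, while that of the DNMT3 family was 391.6, 121.1, 150.8 and 568.0.

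Tdg, the glycosylase that excises oxidised 5-methylcytosine (chromosome 10, 82629828 to 82650799, plus strand), had 0, 1, 2 and 4 reads in E7.5 wild-type, E8.5 wild-type, KO1 and KO2. No fold change is given. In its longest transcript, 66.3% of the 50-base words also occurred in 5 other genes, chiefly the copies Tdg-ps and Gm9855, so reads of Tdg may have been left uncounted, and its low count does not show how much Tdg RNA was present.

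The calls of the members were read against those of all genes. Between the wild-type stages, Tet2 and Tet3 were above a log2 change of 1 at E8.5 and Dnmt3b and Dnmt3l below -1, 2 and 2 of 8, where 12.2% of the 14393 genes compared were higher and 7.82% lower. No member passed the threshold in both KO libraries against E8.5 wild-type, in either direction, where 3.44% of genes were higher and 1.79% lower. KO1 alone called 0 members (4.97% of genes higher and 3.31% lower). KO2 alone called Dnmt3b and Dnmt3l higher (9.41%) and 0 lower (5.91%), and for Dnmt3l, with 5 and 14 reads, the counting interval included no change.

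Against E7.5 wild-type, a library that the stage comparison also uses, Dnmt3l was lower in both KO libraries (2.7% of genes) and 0 members were higher (6.91%). KO1 called Tet2 and Tet3 higher (13.2%) and Dnmt3b and Dnmt3l lower (7.45%), the members that differed between the wild-type stages. KO2 called 0 members higher (10.9%) and Dnmt3l lower (4.06%). KO2 was above KO1 for Dnmt3b and Dnmt3l (5.99%) and below it for 0 members (4.89%). With so few members, these counts are a description only.

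The edgeR test adjusted over all genes called 0 members against E8.5 wild-type and 0 against E7.5 wild-type (0% of genes in both). At an unadjusted p under 0.05 it called 0 members against E8.5 wild-type, where it called 7.31% of genes, and 2 (Dnmt3l and Tet1) against E7.5 wild-type, where it called 24.4%. DESeq2 called 0 members against E8.5 wild-type (0.215% of genes) and Dnmt3l against E7.5 wild-type (6.43%). In these fits only the KO libraries gave an estimate of the spread, with 1 residual degree of freedom, and the p-values measure the spread between pools of embryos that also differed in stage. The adjusted p of the 8 members against E8.5 wild-type ran from 0.666 to 0.951.

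The genes around the enzymes were grouped in 5 lists. Of all genes compared, 3.44% were higher and 1.79% lower past the threshold in both KO libraries against E8.5 wild-type. Against E7.5 wild-type the shares were 6.91% and 2.7%. In lists this short, a count of 0 therefore does not show that a list was unchanged. Of 15 cofactors of DNA methylation, 14 were compared and 0 passed the threshold in both KO libraries against either wild-type stage. Their median log2 change from E8.5 wild-type was -0.17 in KO1 and -0.05 in KO2. The 2 with the largest mean change were Cdca7 and Hells, which together form a nucleosome remodeler needed for methylation of packed chromatin. Cdca7 had 2532, 2859, 1297 and 1969 reads in E7.5 wild-type, E8.5 wild-type, KO1 and KO2 (-0.56 ± 0.05, SD, n = 2), and Hells had 1827, 2861, 1280 and 2463 (-0.41 ± 0.29). Like Dnmt1 and Uhrf1, both stood below E8.5 wild-type in KO1 and in KO2. At any size, this held for 8 of the 14 cofactors and for 5413 of the 14393 genes compared.

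Of 8 methyl-CpG binding proteins, which read the mark, 0 passed the threshold in both KO libraries against E8.5 wild-type, and their medians were 0.03 and -0.19. Zbtb4 had 65, 77, 94 and 127 reads and a mean log2 change of 0.77 ± 0.07 (SD, n = 2), with both KO libraries above both wild-type libraries. Zbtb38 had 41, 75, 84 and 82 reads (0.42 ± 0.40). Against E7.5 wild-type, Zbtb33, which encodes Kaiso, was higher in KO1 (1.25) and KO2 (1.22), and by 1.52 in E8.5 wild-type.

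Of 17 partners of demethylation and base excision repair, 0 passed the threshold in both KO libraries against E8.5 wild-type, with medians of -0.01 and 0.03. Gadd45a, a stress-inducible gene that has been linked to demethylation through TDG, had 61, 202, 79 and 77 reads, and its mean log2 change from E8.5 wild-type was -1.07 ± 0.40 (SD, n = 2). Both KO libraries lay between the wild-type stages. Neil2, a base excision glycosylase, had 27, 23, 6 and 14 reads (-0.91 ± 0.40). Against E7.5 wild-type, Cxxc4 was higher in both KO libraries (1.75 and 1.31) and Gadd45b lower (-1.83 and -1.03). E8.5 wild-type differed from E7.5 wild-type in the same directions and by more, at 2.195 for Cxxc4 and -1.92 for Gadd45b.

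Of 9 genes of methyl donor supply, which make S-adenosylmethionine from the folate cycle, 0 passed the threshold in both KO libraries against E8.5 wild-type. Their medians were -0.24 in KO1 and -0.02 in KO2, and 6 of 9 were lower in both at any size, as were 5413 of the 14393 genes compared. Mthfd1 had 4115, 2782, 1203 and 2206 reads (-0.49 ± 0.24, SD, n = 2), and Shmt1 had 2112, 1238, 571 and 1027 (-0.41 ± 0.22). Both were highest in E7.5 wild-type, against which Shmt1 passed the threshold in KO1 (-1.38) and KO2 (-1.07). In E8.5 wild-type Shmt1 was below E7.5 wild-type as well (-0.82). The genes named here against E7.5 wild-type were named after their values were seen.

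**Figure D5:**
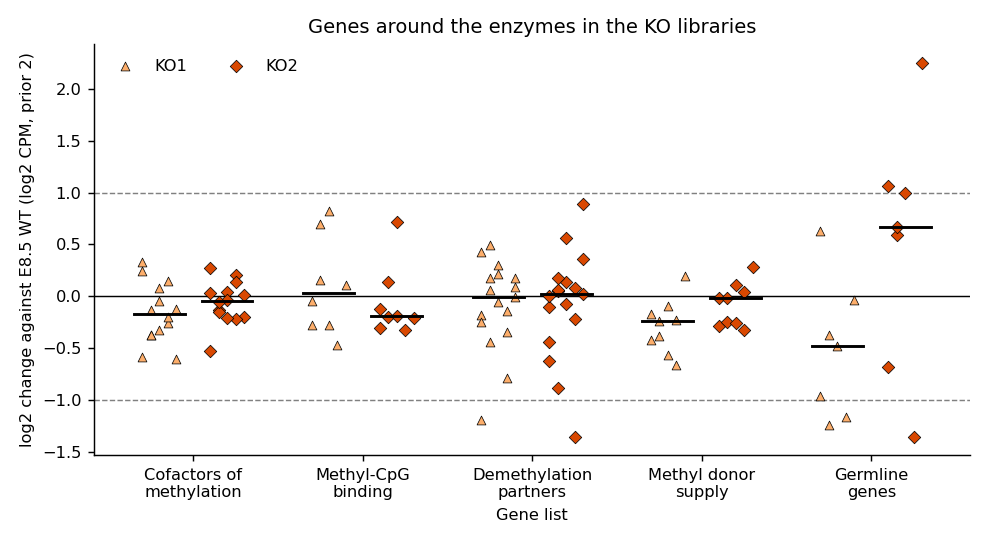
Log2 change from E8.5 WT (log2 CPM with a prior count of 2) of each compared gene of the 5 lists in KO1 (triangles) and KO2 (diamonds), with the median as a bar and dashed lines at 1 and -1. The first 4 lists centre near 0, with medians from -0.24 to 0.03, and the germline genes spread most, from -0.48 in KO1 to 0.67 in KO2 by median.

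Germline genes that promoter methylation keeps silent in the embryo were the last list. Of 18, 11 had fewer than 10 reads in every library, among them Dazl with 0 or 1 read per library and Dpep3 with 0 in all. Of the 7 compared, Stk31 was below E8.5 wild-type past the threshold in KO1 and KO2, but on 12, 6, 1 and 1 reads, and 0 were higher. Sycp3, which encodes a protein of the meiotic chromosome axis, had 29, 27, 18 and 136 reads, so that it was high in KO2 alone (log2 change 2.25, against -0.03 in KO1). Against E7.5 wild-type, Ddx4, Stk31 and Tex19.1 were lower in both KO libraries (2.7% of all genes compared). In these genes E8.5 wild-type was below E7.5 wild-type too, with log2 changes of -1.06, -0.83 and -3.675. Tex19.1 had 532, 41, 11 and 66 reads, an order of libraries in which E7.5 wild-type alone was high, as for Dnmt3l.

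For each member, the genes of the most similar pattern were found among 9945 genes with a mean of at least 100 reads, as the root mean square difference of log2 CPM centred over the 4 libraries. For Dnmt3b these were Ada (0.12), Gatm (0.19) and Hopx (0.19), and Ada had 160, 55, 53 and 287 reads in E7.5 wild-type, E8.5 wild-type, KO1 and KO2. For Dnmt3l they were Elf5 (0.34), Wnt7b (0.57) and AU018091 (0.95). For Tet3 they were Ets1 (0.03), Mmp2 (0.04) and Ror2 (0.04), and for Tet2 they were Steap2 (0.05), Mex3b (0.06) and Trabd2b (0.06). Tet1 was nearest to Spty2d1 (0.02), Zyg11b (0.02) and Arfip1 (0.02), Dnmt3a to Cdcp1 (0.04), Ston2 (0.04) and Dusp16 (0.05), Dnmt1 to Vwa8 (0.01), Upf2 (0.02) and Tpt1 (0.02), and Uhrf1 to Parp1 (0.01), Etf1 (0.01) and Cops3 (0.02). With 4 libraries, a near pattern is easily met by a gene of small change, so the distances describe these libraries only.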

How the data were processed

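The deposited table held the authors' raw, unscaled counts for each gene. As their methods describe, poly(A) RNA from stranded libraries was trimmed with Cutadapt 2.8, checked with FastQC 0.11.7, aligned to mm10 with HISAT2 2.1.0, handled with SAMtools 1.9 and counted over exons by strand with featureCounts 2.0.0. The stated counting options hold no setting for multi-mapped reads.

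Counts were scaled with TMM in edgeR 4.0.16 (R 4.3.3), and genes reaching 10 counts in any library (14393) were compared. Log2 changes used a prior count of 2, and a change past 1 or -1, the criterion of the study's methods, was called. The WT stages, with 1 library each, were compared by size and counting interval, and no test was run between them. Exact Clopper-Pearson 95% intervals of a gene's reads in 2 libraries, or of 2 genes in 1 library, cover counting error only, and a count of 3 was the floor. The edgeR quasi-likelihood test with Benjamini-Hochberg adjustment was fitted over all 4 libraries in 3 groups, with DESeq2 1.42.0 as the alternative. The threshold call and the edgeR fit, but not DESeq2, were also run on simulated data, whose outcome is not reported here. Lengths were exon unions of GENCODE M21. The labels do not say whether replicates were independent beyond being separate pools. Python 3.11.15 with matplotlib 3.10.9 drew the figures.

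Members and lists were chosen with earlier results of these data known. The genes named are the 9 members, Ddx6, the list genes that passed the threshold in KO1 as well as KO2 and the 2 of each list with the largest mean change, and the 3 nearest genes of each member. Other named genes were chosen after their values were seen. The alternatives tried were the size factors of DESeq2 and plain CPM for scaling, a filter at 50 counts or none, a prior count of 0.5, a threshold of 2, other gene lengths, and leaving out each KO library.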

Additional observations from a re-analysis of the deposited data

How the results depend on the processing

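Of 136 recomputed values, 122 stayed within 1.5 times the count or, for single values, within the spread between the KO libraries. That spread was wide, and some mean log2 changes from E8.5 WT within it changed sign: Dnmt3l to -0.13 and Tet2 to 0.15 without KO2, and Tet1 to 0.01 under plain CPM and 0.08 without KO1. That of Dnmt3b was 0.35 without KO2. With 2 KO libraries, leaving 1 out always moves a mean log2 change by less than their SD. Those mean changes could therefore not be counted as moved, and their part of the 122 shows nothing about stability. Against E8.5 WT, leaving out a KO library gave 0 to 2 members higher in the remaining one: Dnmt3b and Dnmt3l without KO1, and 0 without KO2. Against E7.5 WT, the members higher numbered 0 to 2 (Tet2 and Tet3 without KO2) and those lower 1 to 2 (Dnmt3b added without KO2). With no filter on low counts, 1 member, Tdg, was higher against E7.5 WT, where it had 0 reads. With a threshold of 2, 0 members were higher and 1 (Dnmt3l) was lower between the WT stages, and 1 (Dnmt3b) was higher in KO2 than in KO1. Against E7.5 WT, DESeq2 called 1 member, and edgeR with no filter called 1, Dnmt3l in both. Plain CPM moved the mean log2 change of Dnmt1 to -0.19, and the median of the partners of demethylation to 0.07. Without length, the Dnmt3b share of its family was 72.8%, 75.7% and 89.3% in E8.5 WT, KO1 and KO2. No paired analysis was possible because each WT stage had 1 library and no label pairs the libraries.

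With 1 library per WT stage and KO pools of unlike stage, genotype, stage and pool cannot be told apart. KO2 also differed from the other libraries in its sex-linked reads (Xist and the Y-linked genes) and in trophoblast giant cell markers. Sex and tissue content therefore cannot be separated from these factors in KO2 either. At 3 to 14 reads, changes of Dnmt3l among the E8.5 libraries were not detectable at this depth.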
